A study of Canis lupus familiaris with 13 samples.

Results

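Messenger RNA of PYGM, ALDOC and GAPDH, 3 genes of glycogen breakdown and glycolysis, was followed through dog heart tissue on an Affymetrix canine array. All array features whose annotated gene symbol was one of the 3 genes were taken, leaving out the control features printed for quality checks. This gave 3 of the 6540 genes with a symbol on the array and 4 of its 23836 probe sets: PYGM had 2 (1603583_s_at and 1591456_at), ALDOC had 1 (1583238_at) and GAPDH had 1 (1582358_s_at). All 4 passed the filter on low signals, which kept 14302 probe sets. The 13 arrays held 1 named sample each, in 4 groups: control heart tissue of mongrels (P1, P4 and P9), heart tissue with dilated cardiomyopathy (DCM) of Dobermans (K, L and R) and of Boxers (1 to 4), and heart tissue of mongrels labelled as pacing (LV01, LV02 and LV04). In DCM the heart chambers widen and pump weakly, and rapid pacing through an electrode is used in dogs to bring on heart failure. The labels gave no age, sex, chamber, pacing rate or pacing time, and healthy dogs of the 2 breeds were not among the samples, so breed and disease cannot be told apart. The labels do not say that the samples came from separate animals, so the p-values measure only the spread between these samples.

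Glycogen is the branched store of glucose in muscle. PYGM, the muscle form of glycogen phosphorylase, cuts glucose units from it as glucose 1-phosphate, and its inherited loss causes McArdle disease in people. After conversion the sugar enters glycolysis, where aldolase splits fructose 1,6-bisphosphate into 2 three-carbon sugars. ALDOC is the aldolase form best known from brain, while ALDOA is the form of muscle. GAPDH oxidises glyceraldehyde 3-phosphate in the next stage of the pathway and is often used as a reference gene. The adult heart takes most of its energy from fatty acids and draws on glucose and glycogen as further fuels.

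Values are MAS5 signals, a summary of probe brightness on a linear scale, which the authors brought to a common level on each array. The tissue label was checked with 10 ventricular cardiomyocyte markers, all of which were tested. Their summed signal ran from 210445 to 309194 in the controls, from 229329 to 457428 in the Dobermans, from 213430.0 to 240293 in the Boxers and from 185733 to 207851 in the paced mongrels, and none of the 10 was at 0. In RNA of good quality the 5' and 3' ends of a transcript give like signals. For GAPDH the 3' control probe set had 1.08 times the signal of the 5' set in Doberman K, 2.10 times in L and 3.62 times in R, against 0.967 to 1.09 on the other 10 arrays. By this ratio Dobermans L and R stand apart. By the actin control sets only R did, with a 3'/5' ratio of 0.943. Actin gave 0.268 in K and 0.265 in L, and 0.111 (control P1) to 0.340 (Boxer 4) on the other 10 arrays. The actin ratio thus lay far under 1 on every array but R, also in the controls. The actin 5' set gave 28399, 29817 and 20836 in controls P1, P4 and P9, close to 28029, 30117 and 20632 at the GAPDH 5' set. The actin ratio is therefore hard to read as a measure of RNA quality. The Doberman results for PYGM, ALDOC and GAPDH and the pathway counts are also given for K alone. A fit with K alone holds no spread among Dobermans, so its p-values rest on the spread of the other groups. These are bulk samples, in which fewer cells of a type and less RNA per cell cannot be told apart.

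PYGM was lower in the Dobermans than in every other group, and most of its fall lay in the samples L and R. Probe set 1603583_s_at gave signals of 5631, 6157 and 4522 in controls P1, P4 and P9, and of 3773.5, 4676 and 4086 in paced mongrels LV01, LV02 and LV04. The 4 Boxers gave 3271, 3125, 2751 and 3769.8. Dobermans K, L and R gave 2464, 274 and 163. All 3 Dobermans lay below all 10 other samples, K by a small step and L and R by a large one. The mean signal was 5437 ± 835 in the controls (SD, n = 3), 4179 ± 458 in the paced mongrels (SD, n = 3), 3229 ± 422 in the Boxers (SD, n = 4) and 967 ± 1298 in the Dobermans (SD, n = 3).

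The other PYGM probe set, 1591456_at, gave 3573, 3798.5 and 2708 in the controls and 2425, 2833 and 2449.9 in the paced mongrels. Boxers 1 to 4 gave 2388, 2024, 2217.5 and 2181. Dobermans K, L and R gave 1985, 235 and 157. The order of the 4 groups was that of the first probe set, and all 3 Dobermans again lay below all 10 other samples. The group means were 3359.7 ± 576 in the controls (SD, n = 3), 2569 ± 229 in the paced mongrels (SD, n = 3), 2203 ± 149 in the Boxers (SD, n = 4) and 792 ± 1033 in the Dobermans (SD, n = 3).

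**Figure D1:**
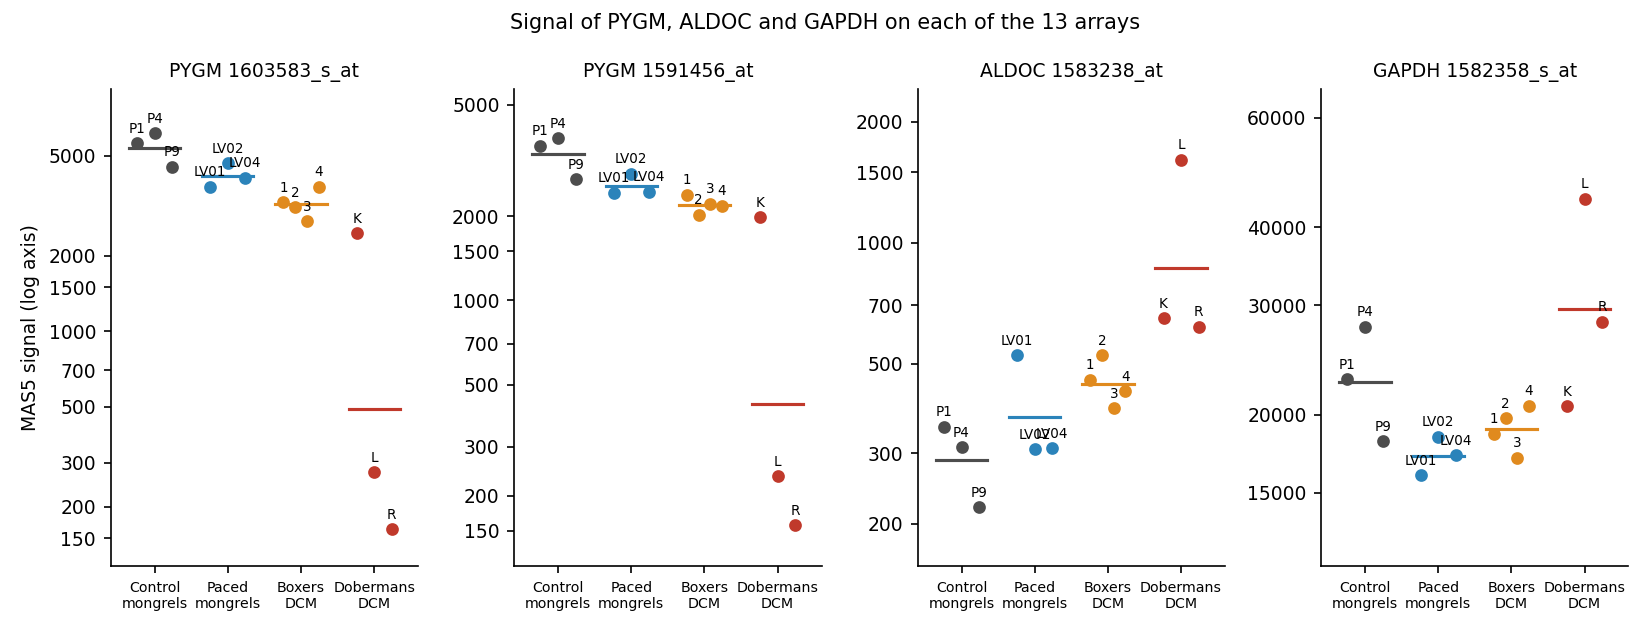
Deposited MAS5 signals (log axis) of the 4 probe sets of PYGM, ALDOC and GAPDH on each of the 13 arrays; each point is 1 sample with its name, and the horizontal bar is the group mean on the log2(signal + 16) scale. Doberman L lies at 274 for PYGM 1603583_s_at, at 1610.3 for ALDOC and at 44478 for GAPDH.

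Changes were tested on the log2(signal + 16) scale, which understates the change of low signals, in limma with Benjamini-Hochberg adjustment over all 14302 probe sets; a change passed at an adjusted p under 0.05. PYGM fell in the Dobermans against the controls by 3.42 ± 0.65 (SE) on the log2 scale with 1603583_s_at, which is 10.7-fold (95% interval of the log2 change -4.82 to -2.02, adjusted p = 0.0073). The fit pools the spread of all groups, but the log2 SD of this probe set was 2.02 in the Dobermans against 0.23 in the controls. It was 0.19 in the Boxers and 0.16 in the paced mongrels. The SE, interval and adjusted p thus understate the spread among the Dobermans. Of the 14302 probe sets, 10 fell further. With 1591456_at the fall was 7.54-fold, a log2 change of -2.91 ± 0.61 (adjusted p = 0.0099). In this comparison 14.1% of all 5242 genes, each taken at its brightest tested probe set, were called lower and 11.9% higher. Against the mean of the controls, the log2 difference with 1603583_s_at was -1.12 for K, -4.22 for L and -4.92 for R. The signals of L and R, 274 and 163, lay around their array medians of 234 and 219. Such low signals limit how well the size of the fall is known.

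The fall was smaller with K as the only Doberman. Its log2 change was then -1.12 with 1603583_s_at, 2.18-fold, and -0.74 with 1591456_at. A single sample holds no spread among Dobermans, so these are effect sizes only. With all 3 Dobermans the call of 1603583_s_at was lost in a fit of only the Dobermans and the 3 controls (adjusted p = 0.112). It was also lost with a covariate for the GAPDH 3'/5' ratio (log2 change -1.38, adjusted p = 0.0847).

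The 2 PYGM probe sets differed less from each other in the Dobermans than in the controls and paced mongrels. The log2 signal of 1603583_s_at minus that of 1591456_at was 0.69 ± 0.04 in the controls (SD, n = 3), 0.70 ± 0.05 in the paced mongrels (SD, n = 3) and 0.54 ± 0.21 in the Boxers (SD, n = 4). Doberman K had 0.31, L 0.21 and R 0.05, so the Dobermans lay below all controls and all paced mongrels. Boxer 3, also at 0.31, lay as low as K. A two-sided exact permutation test of the Dobermans against the controls gave p = 0.1, the smallest that 3 against 3 samples can give (0.171 after adjustment over 12 such tests of array measures). The part that RNA quality or the low signals of both probe sets in L and R take in the difference was not tested.

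The Boxers showed a lower PYGM signal than the controls that did not pass the test. The log2 change was -0.75 ± 0.61 (SE) with 1603583_s_at, 1.68-fold lower (95% interval -2.05 to 0.56, adjusted p = 0.867), although each Boxer lay below each control on both probe sets. In this comparison 0.0382% of the genes were called lower and 0.0191% higher. With Dobermans L and R left out of the fit, which lowers the pooled spread, the same change of -0.75 had an SE of 0.14 and an adjusted p of 0.0437 (0.477% of genes called lower), and 1591456_at had an adjusted p of 0.0577.

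The paced mongrels overlapped the controls in PYGM. Their log2 change was -0.37 ± 0.65 (SE) with 1603583_s_at (95% interval -1.77 to 1.03, adjusted p = 0.745); 4.04% of the genes were called lower and 5.19% higher in this comparison. The Boxers lay below the paced mongrels by a narrow margin, with the highest Boxer at 3769.8 and the lowest paced mongrel at 3773.5. That log2 difference was -0.37 ± 0.61 (SE; adjusted p = 0.709), and 8.37% of the genes were called lower and 5.84% higher. In the order controls, paced mongrels, Boxers and Dobermans, the neighbours among the first 3 groups did not differ beyond the error of the fit to all 13 arrays. That error includes the spread among the Dobermans, whose log2 SD was 2.02. The SD was 0.23 in the controls, 0.16 in the paced mongrels and 0.19 in the Boxers. In a fit of only the Boxers and paced mongrels their difference passed, so the test cannot settle whether these groups differ.

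The Dobermans differed from the other diseased breed and from the paced mongrels. PYGM 1603583_s_at was 6.39-fold lower than in the Boxers, a log2 change of -2.68 ± 0.61 (SE; adjusted p = 0.0084). Between the breeds 17.4% of the genes were called lower in the Dobermans and 16.8% higher. Against the paced mongrels it was 8.28-fold lower, a log2 change of -3.05 ± 0.65 (SE; adjusted p = 0.006), where 11.2% of the genes were called lower and 13.6% higher. With K alone the log2 change was -0.38 against the Boxers and -0.75 against the paced mongrels.

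ALDOC went the other way and was highest in the Dobermans. Its signals were 349, 309.7 and 219.8 in controls P1, P4 and P9, and 525.6, 307 and 308 in paced mongrels LV01, LV02 and LV04. Boxers 1 to 4 gave 456, 525.8, 388 and 427. Dobermans K, L and R gave 649.5, 1610.3 and 619. All 3 Dobermans lay above all 10 other samples, L by far, and every Boxer lay above every control. The means were 293 ± 66.3 in the controls (SD, n = 3), 380.3 ± 126 in the paced mongrels (SD, n = 3), 449 ± 58.2 in the Boxers (SD, n = 4) and 959.5 ± 564 in the Dobermans (SD, n = 3).

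ALDOC rose 2.90-fold in the Dobermans against the controls, a log2 change of 1.54 ± 0.34 (SE; 95% interval 0.81 to 2.26, adjusted p = 0.0109). Of all tested probe sets, 274 rose further. Against the Boxers ALDOC was 1.91-fold higher in the Dobermans (log2 change 0.93 ± 0.32, adjusted p = 0.0354) and against the paced mongrels 2.30-fold higher (1.20 ± 0.34, adjusted p = 0.0216). Doberman K, with a GAPDH 3'/5' ratio of 1.08, and R, with 3.62, had like ALDOC values, 1.13 and 1.06 above the control mean on the log2 scale, and L with a ratio of 2.10 had 2.42. With K alone the change of 1.13 had an adjusted p of 0.095, and with only L left out the changes against the Boxers (0.49) and the paced mongrels (0.76) missed the threshold.

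In the Boxers the ALDOC change against the controls was 0.61 ± 0.32 (SE) on the log2 scale, 1.52-fold (95% interval -0.07 to 1.28, adjusted p = 0.721), with no overlap of the groups. In the paced mongrels it was 0.34 ± 0.34 (SE; adjusted p = 0.541), and LV01 alone lay above the controls. The Boxers and paced mongrels overlapped (0.27 ± 0.32, adjusted p = 0.592). ALDOC thus ran from the Dobermans through the Boxers and paced mongrels to the controls, and only the step from Dobermans to Boxers passed the test.

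ALDOC is known from brain, so markers of nerve and glia are given beside it. Of 8 such markers 5 were on the array, 2 passed the filter and neither passed the test between Dobermans and controls. The summed signal of the 5 ran from 238 to 393 in the controls, from 534.5 to 764 in the Dobermans, from 429.8 to 824 in the Boxers and from 493 to 1289.8 in the paced mongrels. All diseased and paced samples thus lay above all controls in this sum, and the part of these cells in the ALDOC result was not tested.

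GAPDH passed no test against the controls, and its highest signal lay in Doberman L. Its signals were 22836, 27696 and 18160.1 in controls P1, P4 and P9, and 16021, 18467 and 17234 in paced mongrels LV01, LV02 and LV04. Boxers 1 to 4 gave 18667, 19744.5, 17067 and 20713. Dobermans K, L and R gave 20642, 44478 and 28242. K lay among the controls and just under the highest Boxer, R lay slightly above the highest control, and L lay above all others. The means were 22897 ± 4768 in the controls (SD, n = 3), 17241 ± 1223 in the paced mongrels (SD, n = 3), 19048 ± 1563 in the Boxers (SD, n = 4) and 31120.4 ± 12176 in the Dobermans (SD, n = 3).

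No comparison with the controls passed the test for GAPDH. The log2 change was 0.39 ± 0.25 (SE) in the Dobermans (95% interval -0.14 to 0.92, adjusted p = 0.236), -0.25 ± 0.23 in the Boxers (95% interval -0.74 to 0.25, adjusted p = 0.884) and -0.39 ± 0.25 in the paced mongrels (95% interval -0.92 to 0.14, adjusted p = 0.317). GAPDH was higher in the Dobermans than in the Boxers by 1.56-fold (log2 change 0.64 ± 0.23, adjusted p = 0.0448) and than in the paced mongrels by 1.72-fold (0.78 ± 0.25, adjusted p = 0.0345). With K alone these were 0.12 (adjusted p = 0.761) and 0.26 (adjusted p = 0.40), and with quantile normalization 0.12 and 0.03, both short of the threshold. Leaving out 1 sample at a time ended the call against the Boxers in 10 of 13 fits. The difference of Boxers from paced mongrels was 0.14 ± 0.23 (adjusted p = 0.706) and its sign turned with quantile normalization (-0.09).

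**Figure D2:**
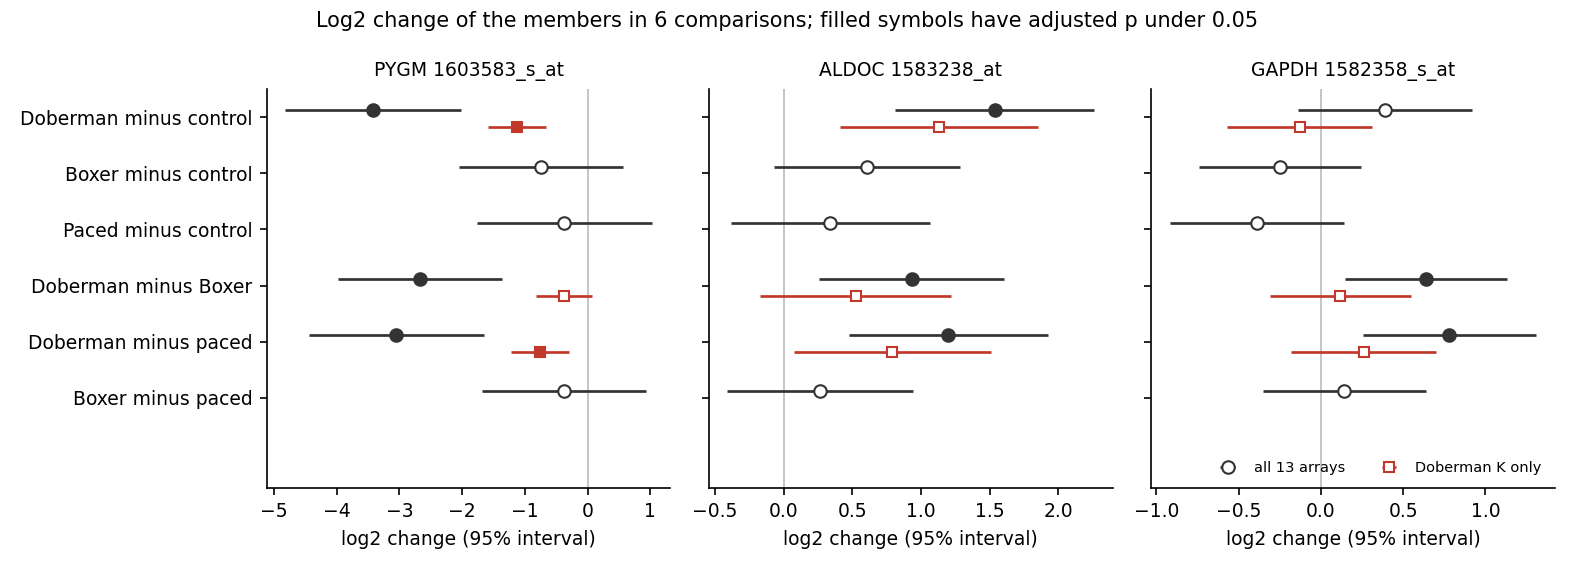
Log2 change (x axis, with 95% interval) of PYGM 1603583_s_at, ALDOC and GAPDH in the 6 comparisons named on the y axis; circles use all 13 arrays, squares keep K as the only Doberman, and filled symbols passed an adjusted p of 0.05. For PYGM in Dobermans minus controls the circle lies at -3.42 and the square at -1.12.

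GAPDH is also read by 3 control probe sets placed near the 5' end, in the middle and near the 3' end of the transcript. The GAPDH 5' set gave 23024, 20968 and 11385 in Dobermans K, L and R and 28029, 30117 and 20632 in the controls. The GAPDH 3' set gave 24783.5, 44108 and 41162 in the Dobermans and 28714, 32123 and 22131.5 in the controls. Towards the 5' end, then, L and R had no more signal than K, and towards the 3' end they had more than K and more than any control.

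Against the controls the Doberman log2 change was -0.55 ± 0.24 (SE) at the GAPDH 5' set (adjusted p = 0.0967), -0.05 ± 0.21 at the middle set (adjusted p = 0.874) and 0.38 ± 0.22 at the 3' set (adjusted p = 0.207). The sign of the GAPDH difference between Dobermans and controls thus depended on where the probes lay. Against the Boxers the 3' set was higher in the Dobermans (0.63 ± 0.21, adjusted p = 0.0322), while the 5' set gave -0.34 ± 0.23 (adjusted p = 0.242) and the middle set 0.29 ± 0.19 (adjusted p = 0.249). Against the paced mongrels the 3' set gave 0.88 ± 0.22 (adjusted p = 0.0136), the middle set 0.37 (adjusted p = 0.204) and the 5' set -0.17 (adjusted p = 0.641). The GAPDH member, 1582358_s_at, gave the same sign as the 3' set in these 3 comparisons. In the Boxers all 3 control sets lay between -0.33 and -0.22 against the controls, and in the paced mongrels between -0.50 and -0.39, and none passed.

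**Figure D3:**
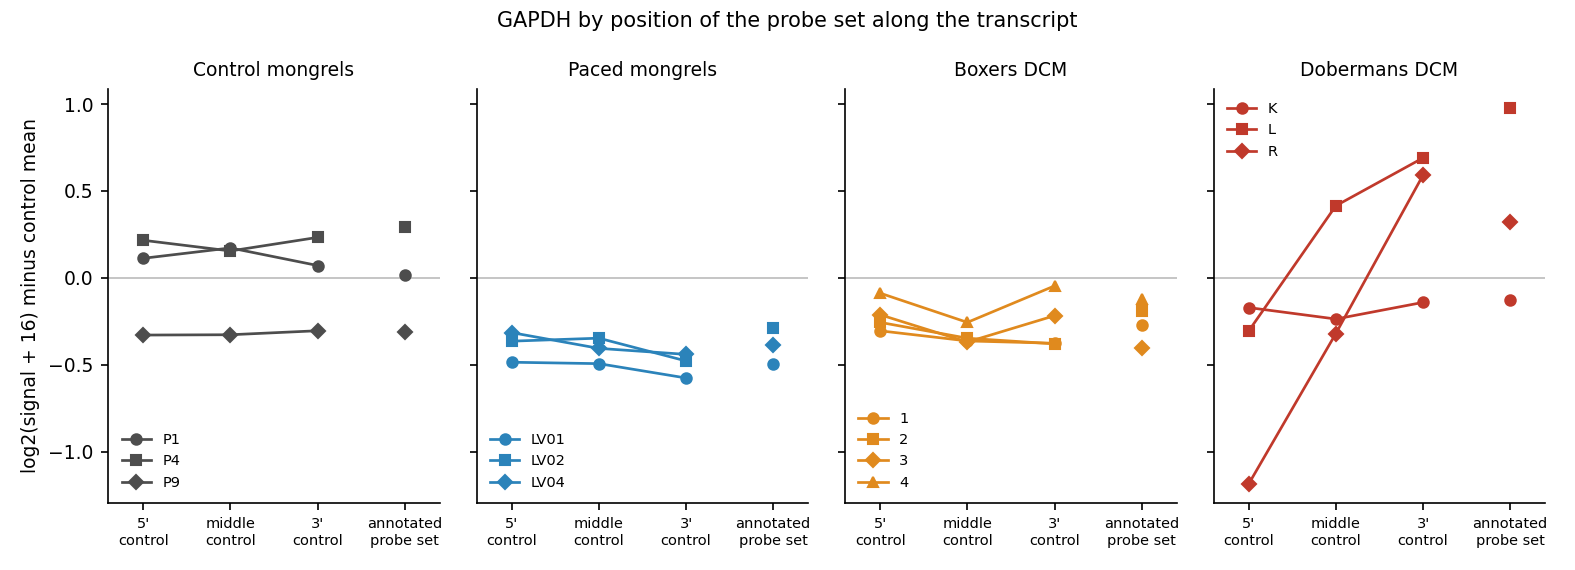
GAPDH signal relative to the mean of the controls (y axis, log2 difference) at the 5', middle and 3' control probe sets and at 1582358_s_at (x axis), with 1 line per sample and 1 panel per group. Doberman R runs from -1.19 at the 5' set to 0.59 at the 3' set and L from -0.31 to 0.69, while K stays between -0.24 and -0.13.

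The isozymes that share the work of the 3 genes could be followed only in part. PYGL, the liver form of glycogen phosphorylase, had a signal of 215 ± 29.5 in the controls (SD, n = 3) and 339 ± 177 in the Dobermans (SD, n = 3), a log2 change of 0.47 ± 0.37 (SE; adjusted p = 0.335). PYGB, the brain form of phosphorylase, and the muscle aldolase ALDOA were not analysed here, since no probe set carried their symbol.

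The wider pathway was described with a list of 80 genes in 7 roles, of which 48 were on the array and 45 were tested, PYGM, ALDOC and GAPDH among them. In the Dobermans against the controls 4 rose (8.89%), 10 fell (22.2%) and 31 did not pass, beside 11.9% of all genes called higher and 14.1% lower. The median log2 change of the 45 was 0.04, as was that of all 5242 genes. Leaving out the 3 genes, 12 of 42 were called. With K as the only Doberman PYGM changed by -1.12 and PFKL, the liver phosphofructokinase, by 0.96. PFKL is named here after its values were seen. Leaving out 1 sample at a time gave 6 (without control P1) to 23 (without Doberman K) called genes.

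In the Dobermans against the controls 1 of the 9 tested genes of glycogen breakdown rose and 1, PYGM, fell, while of the 5 tested genes of glycogen synthesis and its control 2 fell and 0 rose. PPP1R3C, which brings protein phosphatase 1 to glycogen and favours its synthesis, fell by 1.88 ± 0.45 (SE) on the log2 scale (adjusted p = 0.0148). Its signal was 4518, 6318 and 5156 in the controls and 3656, 915 and 859 in Dobermans K, L and R. EPM2A, the glycogen phosphatase laforin, fell by 1.71 ± 0.48 (adjusted p = 0.0251). PHKG2, a catalytic subunit of the phosphorylase kinase that switches phosphorylase on, rose by 1.12 ± 0.38 (adjusted p = 0.0451). With K as the only Doberman these 3 calls were lost, at -0.53 for PPP1R3C, -0.42 for EPM2A and 0.03 for PHKG2, and leaving out 1 sample at a time ended the PHKG2 call in 12 of 13 fits.

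Of the 4 tested genes of glucose entry 1 rose. SLC2A8, a glucose transporter of internal membranes, rose by 1.65 ± 0.41 (SE) on the log2 scale (adjusted p = 0.0158), and K, L and R had signals of 458, 1229 and 953 against 407, 142 and 262 in the controls. PFKM, the muscle phosphofructokinase, fell by 0.86 ± 0.26 (adjusted p = 0.0321). Of the 6 genes tested in upper glycolysis, PFKM and ALDOC passed at their brightest probe set. PFKL did not at its brightest (0.40 ± 0.22, adjusted p = 0.188), but 1602577_x_at of the same gene rose by 0.94 ± 0.20 (adjusted p = 0.0107), with every Doberman above every control. PFKL has 3 tested probe sets, and the third is not given. PFKM, PHKG2, GPD2, PPARGC1A, PYGL, PFKP and TIGAR have 2 tested probe sets each and MEF2C has 3. For each of these genes only the brightest is given here. In lower glycolysis 2 of 7 tested genes fell, and GAPDH did not pass. PGK1, phosphoglycerate kinase, fell by 1.02 ± 0.30 (adjusted p = 0.0271), and the other tested PGK1 probe sets disagreed: 1598895_at fell by 2.33 ± 0.53 (adjusted p = 0.0124) and 1587792_at, of low signal, gave 0.78 (adjusted p = 0.179). PKM, the pyruvate kinase of muscle, fell by 2.54 ± 0.76 (adjusted p = 0.0307), with signals of 2795, 176 and 136 in K, L and R against 2812, 2949 and 1902 in the controls. K thus lay within the controls for PKM, and its change with K alone had the opposite sign (0.15, adjusted p = 0.817). With K alone the calls of SLC2A8, PFKM and PGK1 were lost as well: PFKM was about as large (-0.75), SLC2A8 smaller (0.84) and PGK1 near 0 (-0.14).

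Of the 6 tested genes of lactate and pyruvate handling 3 fell and 0 rose, beside 14.1% of all genes called lower and 11.9% higher. MPC1 and MPC2, which together form the mitochondrial pyruvate carrier, fell by 1.51 ± 0.28 (SE; adjusted p = 0.0067) and 1.19 ± 0.33 (adjusted p = 0.0232) on the log2 scale. MPC1 gave 12362, 11830.2 and 12331 in the controls and 7573, 3499 and 2944 in K, L and R, and all 3 Dobermans lay below all 10 other samples. GPD2, the mitochondrial glycerol 3-phosphate dehydrogenase, fell by 1.73 ± 0.34 (adjusted p = 0.0078), and its signals of 136, 166.5 and 59.5 in K, L and R lay near or under the filter level of 108. Of the 8 tested regulators 1 rose and 1 fell. PFKFB3, which makes the phosphofructokinase activator fructose 2,6-bisphosphate, rose by 0.72 ± 0.22 (adjusted p = 0.0321) and PPARGC1A, a coactivator of mitochondrial genes, fell by 0.59 ± 0.20 (adjusted p = 0.041). With K as the only Doberman these 5 calls were lost. GPD2 (-1.48, adjusted p = 0.0526) and PFKFB3 (0.69, adjusted p = 0.208) were then about as large, and MPC1 (-0.68), MPC2 (-0.41) and PPARGC1A (-0.39) smaller. Leaving out 1 sample at a time ended the PPARGC1A call in 9 of 13 fits.

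**Figure D4:**
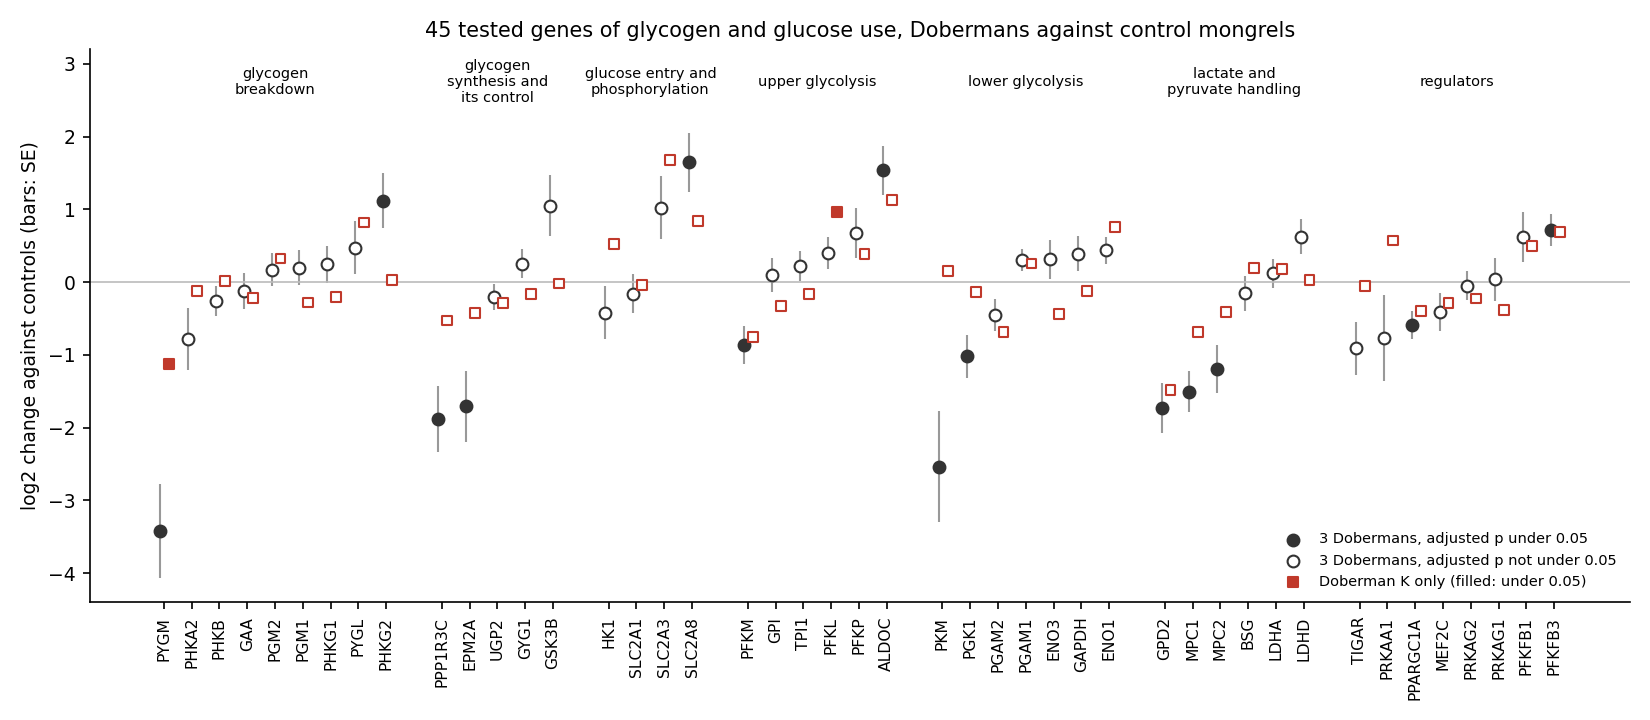
Log2 change in Dobermans minus controls (y axis) of the 45 tested pathway genes (x axis), grouped by role; circles with SE bars use 3 Dobermans, squares K alone, and filled symbols passed. The lowest circle is PYGM at -3.42 and the highest SLC2A8 at 1.65; 14 circles and 2 squares are filled.

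The other comparisons called 0 to 14 of the pathway genes. In the Boxers against the controls 0 of 45 passed in limma, and 6 had an unadjusted p under 0.05. Over all genes only 0.0191% were called higher and 0.0382% lower, so the count of 0 cannot set the pathway apart. Of all 14302 probe sets 1058 had an unadjusted p under 0.05 in limma. In the paced mongrels 2 rose (4.44%) and 0 fell, beside 5.19% of all genes called higher and 4.04% lower. PGM2, a phosphoglucomutase, rose by 1.11 ± 0.23 (SE) on the log2 scale (adjusted p = 0.0085). PFKP, the platelet phosphofructokinase, rose by 1.59 ± 0.34 (adjusted p = 0.0101). PFKP gave 1103, 497 and 723 in LV01, LV02 and LV04 against 313.5, 161 and 249 in the controls, with no overlap. The median log2 change of the 45 genes in the paced mongrels was -0.18, against -0.04 over all genes. The arrays' median signal was 207 to 219 in the paced mongrels and 142 to 146 in the controls. With each array centred on its median 1 pathway gene rose and 18 fell in this comparison. The median over all probe sets then moved from 0.06 to -0.45, and of all 14302 probe sets 530 were called higher and 3394 lower.

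Between the breeds 6 pathway genes were higher in the Dobermans (13.3%) and 8 lower (17.8%), near the 16.8% and 17.4% of all genes. With median centring 1 pathway gene was higher and 15 lower, beside 806 higher and 4299 lower of all 14302 probe sets. With K as the only Doberman 1 was higher, again PFKL (1.11, adjusted p = 0.0144), and 0 lower, where 2.46% of all genes were called in either direction. MPC1 (-1.42 ± 0.26, adjusted p = 0.0042) and LDHD, a lactate dehydrogenase for D-lactate (1.09 ± 0.23, adjusted p = 0.0065), passed with the smallest p. SLC2A1, the glucose transporter of many tissues (-0.79 ± 0.25, adjusted p = 0.0272), and TIGAR, a fructose bisphosphatase that lowers glycolysis (-1.07 ± 0.34, adjusted p = 0.0269), were lower. Against the paced mongrels 7 were higher (15.6%) and 6 lower (13.3%) in the Dobermans, near the 13.6% and 11.2% of all genes. The balance turned to 6 higher and 10 lower with quantile normalization and was 10 and 4 with median centring. Of all 14302 probe sets 2273 were higher and 2071 lower with quantile normalization, and 2305 and 1126 with median centring. In the values as deposited SLC2A8 had the smallest p against the paced mongrels, 6.33-fold higher (log2 change 2.66 ± 0.41, adjusted p = 0.0011). PHKA2, a regulatory subunit of phosphorylase kinase, was lower by 1.66 and the glycolytic enzymes TPI1 and PGAM1 were higher by 0.63 and 0.50. With K alone the changes against the paced mongrels were 1.85 for SLC2A8 and -0.64 for MPC1. They were -0.75 for PYGM 1603583_s_at and -0.37 for PYGM 1591456_at. PHKA2, TPI1 (0.25), PGAM1 (0.46) and PYGM 1591456_at then lost their calls. Leaving out 1 sample at a time ended the TPI1 call in 10 of 13 fits. In the Boxers against the paced mongrels SLC2A8 was higher (1.27 ± 0.38) and PGM2 and the transcription factor gene MEF2C were lower (-0.91 ± 0.21 and -0.75 ± 0.24). Over all genes 5.84% were called higher and 8.37% lower in this comparison. With median centring the pathway split became 17 higher and 0 lower, while the median over all probe sets moved from -0.07 to 0.51. Of all 14302 probe sets 4741 were then called higher and 662 lower. The comparisons with the controls share the 3 control samples, and those of the Dobermans share K, L and R.

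For each of the 3 genes the 4 genes of most similar course were found by the root mean square (RMS) difference of log2 signals, each gene centred on its own mean over the 13 arrays. PYGM itself varied by an RMS of 1.53 around its mean. SELENBP1, a selenium-binding protein that oxidises methanethiol, lay nearest with an RMS difference of 0.33, before NDUFA9, a subunit of respiratory complex I (0.40), SERINC1, a membrane protein (0.42), and PKM (0.46). NDUFA9 gave 8453, 657 and 623.5 in K, L and R against 9152, 11621 and 11497 in the controls, and SERINC1 gave 2563, 149.5 and 169 against 2238, 2798.5 and 2959. As with PKM, the low values of these genes lay in L and R.

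Around ALDOC, which varied by an RMS of 0.67, the nearest were TNMD, the tendon glycoprotein tenomodulin (0.28), the class II histocompatibility gene DLA-DOA (0.32), the calmodulin methyltransferase gene CAMKMT (0.33) and the deubiquitinase gene USP24 (0.33). TNMD gave 119, 375 and 188 in K, L and R and 82.3 to 96.5 in the controls, near the filter level. Around GAPDH, with an RMS of 0.39, they were cardiac actin ACTC1 (0.11), myoglobin MB (0.11), CHCHD10 (0.12) and cardiac troponin T TNNT2 (0.14). ACTC1 gave 19973, 40374 and 27293 in K, L and R and 17050 to 23416.5 in the controls. The genes nearest to GAPDH thus include 3 of the 10 cardiomyocyte markers, and they too were highest in L.

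**Figure D5:**
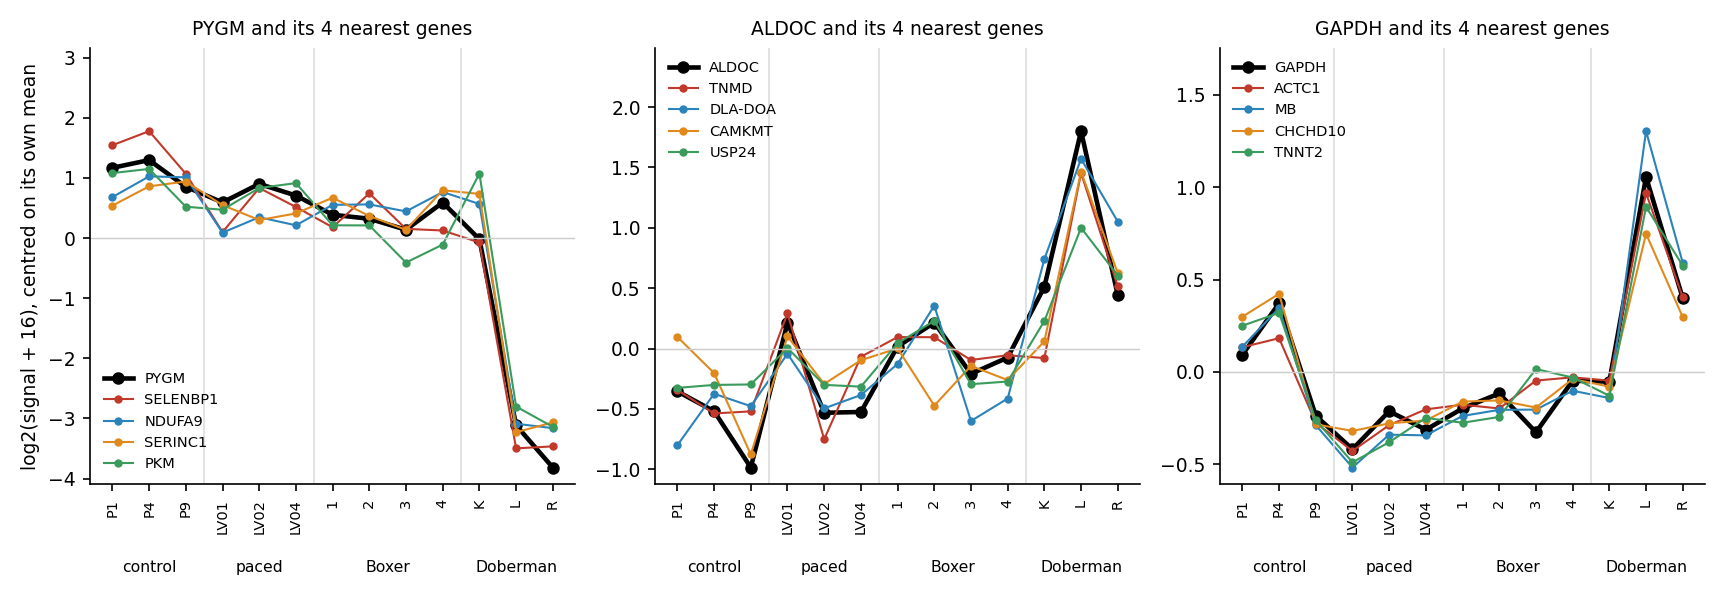
Log2 signal centred on each gene's mean (y axis) over the 13 arrays (x axis) for PYGM, ALDOC and GAPDH, each with its 4 genes of most similar course. The genes around PYGM share their lowest values in Dobermans L and R, and those around ALDOC and GAPDH share their highest value in L.

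Cardiomyocyte markers are given beside the PYGM result because PYGM is a muscle gene. In the Dobermans against the controls 0 of the 10 markers rose and 1 fell, RYR2, the calcium release channel (-1.10 ± 0.21 SE, adjusted p = 0.0075). Over all genes 11.9% were called higher and 14.1% lower in this comparison. Against the Boxers 5 of the 10 were higher and 1 lower, beside 16.8% and 17.4% of all genes. Against the paced mongrels 7 were higher and 0 lower, beside 13.6% and 11.2% of all genes. The summed cardiomyocyte signal ran from 229329 to 457428 in the Dobermans, from inside the control range of 210445 to 309194 to above it. Of the markers followed by sample, ACTC1, MB and TNNT2 lay within the controls in K and above all controls in L and R. TNNT2, for example, gave 25922, 52654 and 42233 in K, L and R. Of 10 markers of skeletal muscle fibres 9 were on the array and 2 passed the filter. The summed signal of the 9 was 765 to 1052 in the controls and 794 to 1468 in the Dobermans, 639.5 to 782 in the Boxers and 775 to 1349.5 in the paced mongrels. Smooth muscle markers, 4 of 5 on the array, summed to 21569 to 32423 in the controls, 41634 to 65935.5 in the Dobermans, 30950.2 to 37720.1 in the Boxers and 22803.5 to 28142.5 in the paced mongrels. Most of the Doberman excess was desmin, DES, which cardiomyocytes also hold in abundance and which rose by 1.26 ± 0.28; MYH11, TAGLN and ACTA2 did not pass. Fibroblast markers, 3 of 5 on the array, summed to 11161 to 16987 in the controls, 17776.5 to 26305 in the Dobermans, 14751 to 22380.3 in the Boxers and 11104 to 13269.6 in the paced mongrels, and 1 of the 3, DCN, rose in the Dobermans (0.67 ± 0.21). Macrophage markers, all 5 on the array, summed to 993 to 2700.2 in the controls, 1684 to 4771 in the Dobermans, 1731 to 5183 in the Boxers and 1334 to 1794 in the paced mongrels, and TYROBP alone rose in the Dobermans (1.09 ± 0.28). The part of these cells in the PYGM and ALDOC results was not tested.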

How the data were processed

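Total RNA of 13 heart tissue samples was labelled with biotin in a standard 1-cycle Affymetrix protocol, per the labels' protocols. The deposited values are signal intensities on a linear scale, made by the authors with MAS5 per the submitters' processing notes (version not given in the sources used here); the 2% trimmed mean of each array was checked to lie near 500. Probe sets were named from the array annotation: 10549 of 23836 had 1 symbol, 138 several and 13149 none. No coordinates or sequences were used.

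All steps used log2(signal + 16), and probe sets whose mean lay below the 40th percentile of all means (6.95, or 108 as a signal) were dropped. limma 3.58.1 (R 4.3.3) fitted 1 mean per group to all 13 arrays (9 residual degrees of freedom, intensity trend). For lists, a gene was its brightest tested probe set (5242 genes). With K as the only Doberman the pooled spread is used, which assumes that K varies like the other groups. The script was tested on simulated data. Figures used Python 3.11.15 and matplotlib 3.10.9.

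The genes, lists and tests were chosen with earlier results of these data known. All probe sets of the 3 genes were named, the up to 4 passing genes of smallest adjusted p per role and comparison, the isozymes PYGB, PYGL and ALDOA, and the 4 genes of most similar course. Not every gene that this rule names is reported here. Alternatives were pseudocounts of 1 and 64, median centring, quantile normalization, no filter, array weights, a fit without the other groups, the actin or GAPDH 3'/5' ratio as a covariate, leaving out samples and, chosen after seeing the data, the GAPDH control probe sets. The number of arrays limits the precision.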

Additional observations from a re-analysis of the deposited data

Results flagged for a closer look

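The Dobermans and the Boxers differed, in the direct test between the breeds in limma, for each probe set of PYGM, ALDOC and GAPDH and for 11 other pathway genes. Between the breeds 31.1% of the pathway genes were called, beside 16.8% of all genes higher and 17.4% lower, so the count lies near the background. As log2 differences of Dobermans minus Boxers, PYGM gave -2.68 with 1603583_s_at and -2.32 with 1591456_at, ALDOC 0.93 and GAPDH 0.64. With K as the only Doberman these were -0.38 (adjusted p = 0.32) for PYGM 1603583_s_at, 0.52 (adjusted p = 0.376) for ALDOC and 0.12 (adjusted p = 0.761) for GAPDH. Higher in the Dobermans were also SLC2A8 by 1.39, LDHD by 1.09, PHKG2 by 1.02 and PFKFB3 by 0.55. Lower in the Dobermans were PPP1R3C (-1.55), MPC1 (-1.42), MPC2 (-1.19), TIGAR (-1.07), GPD2 (-0.99), PGK1 (-0.91) and SLC2A1 (-0.79). Within the Boxers, the 1 group large enough to look for a single stray sample, none of 30 probe sets had one.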

How the results depend on the processing

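Changes are log2 differences. Over the alternatives for PYGM, ALDOC, GAPDH and the pathway counts, 453 values kept direction and side of the threshold, 58 lost the threshold, 6 gained it, 12 turned sign and 47 counts moved by over 1.5 times. The causes were not tested except where fewer samples or arrays enter by construction. No paired analysis was possible because the groups share no replicate numbers. Leaving out 1 sample at a time, PYGM passed in every Doberman comparison, and its change with 1603583_s_at ran from -4.57 to -2.67 against the controls, -3.82 to -1.93 against the Boxers and -4.20 to -2.30 against the paced mongrels. ALDOC ran from 1.10 to 1.78 against the controls (passing throughout), from 0.49 (without L) to 1.17 (without R) against the Boxers and from 0.76 (without L) to 1.45 (without LV01) against the paced mongrels. GAPDH ran from 0.10 (without L) to 0.65 (without K, where it passed with adjusted p = 0.0195) against the controls, from 0.35 to 0.90 against the Boxers and from 0.49 to 1.04 against the paced mongrels, again lowest without L and highest without K. The pathway count ran from 6 (without P1) to 23 (without K) in Dobermans against controls, 5 (without L) to 25 (without K) against the Boxers, 6 (without LV02) to 28 (without K) against the paced mongrels, 1 (without LV01) to 8 (without K) in paced mongrels against controls and 0 (without LV01) to 7 (without K) in Boxers against paced mongrels.

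Without Dobermans L and R, GAPDH in K turned to -0.13 against the controls and lost its call at 0.12 against the Boxers and 0.26 against the paced mongrels; ALDOC lost its call at 1.13, 0.52 and 0.79 against controls, Boxers and paced mongrels; and PYGM lost it at -0.38 against the Boxers, while in the Boxers against the controls it gained it at -0.75. PKM turned to 0.15 against the controls and 0.33 against the paced mongrels, and PHKG2 to -0.061 against the Boxers. The pathway count became 2 in Dobermans against controls, 1 against the Boxers and 5 against the paced mongrels, 1 in Boxers against controls, 13 in paced mongrels against controls and 14 in Boxers against paced mongrels. Among the calls of other named pathway genes, those of PGM2 and PFKP in paced mongrels against controls held. So did those of PGM2, SLC2A8 and MEF2C in Boxers against paced mongrels, and none of these comparisons holds a Doberman. Of the Doberman calls only those of SLC2A8 and MPC1 against the paced mongrels held, and the others lost the threshold or turned sign.

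With a covariate for the GAPDH 3'/5' ratio, which goes largely with L and R, calls against controls, Boxers and paced mongrels were lost for PYGM (-1.38, -0.55 and -0.77) and ALDOC (1.55, 0.94 and 1.21), and for GAPDH against Boxers (0.36) and paced mongrels (0.48). PHKG2 against the Boxers turned to -0.023 and PKM against the paced mongrels to 0.23, and the pathway counts were 0, 1 and 1 in the Doberman comparisons, 6 in paced mongrels against controls and 6 in Boxers against paced mongrels. The actin 3'/5' ratio is hard to read as a measure of RNA quality. With the actin ratio as covariate, calls were lost for PYGM against controls (-1.996) and paced mongrels (-1.93) and for ALDOC against controls (2.05). They were also lost for GAPDH against Boxers (0.68) and paced mongrels (0.88). PYGM in the Boxers turned to 0.19 against the controls and 0.25 against the paced mongrels, and the Doberman pathway counts were 0 against the controls and 2 against the paced mongrels.

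Fitting only the compared groups, the unchanged differences lost their calls for PYGM in Dobermans against controls (-3.42) and paced mongrels (-3.05), ALDOC against controls (1.54), Boxers (0.93) and paced mongrels (1.20) and GAPDH against Boxers (0.64) and paced mongrels (0.78). PYGM in Boxers against paced mongrels gained one (-0.37, adjusted p = 0.0461). The pathway counts were 0, 5 and 1 for Dobermans against controls, Boxers and paced mongrels, 7 for paced mongrels against controls and 16 for Boxers against paced mongrels. With array weights ALDOC lost its call against Boxers (0.85) and paced mongrels (1.08), and counts were 11 for paced mongrels against controls and 12 for Boxers against paced mongrels. Without the filter GAPDH missed against the Boxers (0.64, adjusted p = 0.0712).

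With quantile normalization calls were lost for ALDOC against Boxers (0.87) and for GAPDH against Boxers (0.12) and paced mongrels (0.031), and GAPDH turned to -0.091 in Boxers against paced mongrels and to 0.0070 in paced mongrels against controls. With median centring ALDOC (0.42) and GAPDH (0.13) lost their call between the breeds, GAPDH in Dobermans against controls turned to -0.048 and ALDOC in paced mongrels against controls to -0.17, PYGM in Boxers against paced mongrels turned to 0.20, and calls were gained for GAPDH in paced mongrels against controls (-0.90) and for ALDOC (0.85) and GAPDH (0.72) in Boxers against paced mongrels. Pathway counts were then 19 in paced mongrels against controls and 17 in Boxers against paced mongrels. Of all 14302 probe sets 530 were then higher and 3394 lower in the former comparison, and 4741 and 662 in the latter. Read from its control probe sets, GAPDH in the Dobermans turned to -0.55 (5') and -0.047 (middle) against the controls, to -0.34 (5') against the Boxers and to -0.17 (5') against the paced mongrels, and the middle set missed at 0.29 and 0.37. Pseudocounts of 1 and 64 changed no call of the 3 genes. With 3 or 4 arrays a group, changes near their error cannot be settled. GPD2 and TNMD lie near the filter level, where signal over background limits the size of a change. Low signals in Dobermans L and R also touch PYGM (274 and 163 with 1603583_s_at) and PKM (176 and 136).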
